A study of Mus musculus with 7 samples.

Results

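Astrocytes of CETP-transgenic mice fed a cholesterol-enriched diet were compared with astrocytes of wild-type mice on a standard diet. The comparison uses 5 of the 7 arrays of the series: 3 arrays labelled as CETP animals on the 1% cholesterol diet and 2 arrays labelled as wild-type animals on a standard diet. The other 2 arrays, which carry a CETP genotype and a standard-diet label, entered only the shared estimate of spread and are given beside the main values. The transgenic line was B6.CBA-Tg(CETP)5203Tall/J, and the cholesterol diet was given for 2 months, between 2 and 4 months of age. The growth protocol deposited with every array speaks of cholesterol feeding for the CETP animals and of no CETP group on standard food, so the standard-diet label of those 2 arrays is at odds with it and is kept here only as a label. No CETP array with an undisputed standard diet and no wild-type array with cholesterol exists among these samples, so genotype and diet cannot be told apart in this comparison.

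All cells came from whole brain and were enriched with magnetic beads against the ACSA-2 antigen. The labels state a purity above 70% by flow cytometry for GFAP. From each preparation, 10 ng of RNA was amplified and hybridised to an Affymetrix array. A value is a log2 intensity of 1 probe set, and every difference below is the CETP cholesterol-diet mean minus the wild-type mean on that log2 scale. In such bulk preparations, fewer cells of a type and less RNA per cell cannot be told apart. Sample sex is not given in the labels, and no statement says whether the 5 animals came from shared litters.

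CETP, the cholesteryl ester transfer protein, moves cholesteryl esters and triglycerides between lipoproteins in plasma. Mice have no CETP of their own, so the transgene gives them a lipoprotein metabolism closer to the human one, and in this line dietary cholesterol raises transgene expression. Astrocytes make most of the cholesterol of the adult brain, pack it into particles carrying apolipoprotein E and pass it to neurons. Sterol synthesis in these cells is controlled by the SREBP transcription factors, which are held in the endoplasmic reticulum when sterol is abundant.

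Array medians over the 22206 probe sets lay between 7.51 and 7.59, and those over the negative controls between 7.48 and 7.69. Between 48.1% and 51.4% of the probe sets of an array lay above the median of its negative controls. Correlations between pairs of arrays ran between 0.977 and 0.992. CETP cholesterol-diet array 3 stood furthest from the rest, and CETP cholesterol-diet array 1 and array 2 were the closest pair. The hybridization spike-ins, bacterial and phage transcripts added at fixed amounts before hybridisation, averaged 11.41, 11.21 and 11.77 on CETP cholesterol-diet arrays 1, 2 and 3, 11.02 and 11.22 on the arrays with the CETP standard-diet label, and 11.00 and 10.80 on the wild-type arrays. Spike-ins were thus brighter on each of the 3 cholesterol-diet arrays than in wild type, and the part of this in the results was not tested beyond the values with the spike-in level as a covariate given below.

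No probe set passed an adjusted p of 0.05 in the limma fit (0 of 22206, percent called 0.0), where adjusted p reached down to 0.449. At an unadjusted p below 0.05, 749 probe sets had a higher mean in CETP cholesterol-diet astrocytes (3.37% of those tested) and 1179 had a lower mean (5.31%), together 8.68%. Of these, 38.8% were higher with the deposited scaling, 50.9% after quantile normalization and 47.8% after median subtraction. The lean towards lower values therefore rests on the scaling. Over all probe sets the median difference was -0.05, the median size of a difference was 0.21 and the median standard error was 0.24, so a typical difference was no larger than its error. Differences above 1 log2 unit in size were found in 221 probe sets (0.995%). The arrays of the groups did not overlap in 25.1% of probe sets, with 9.98% higher and 15.1% lower in the CETP cholesterol-diet group. Every gene below is therefore described by its values, and none is called changed.

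**Figure D1:**
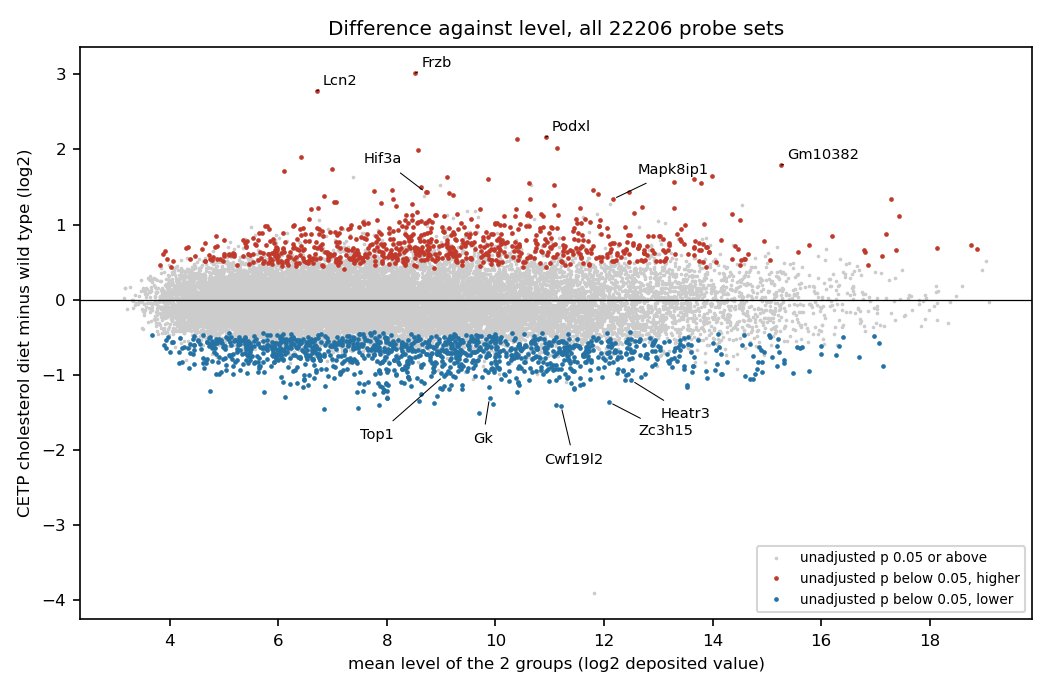
Difference between CETP cholesterol-diet (n = 3 arrays) and wild-type astrocytes (n = 2) in log2 units (y axis) against the mean of the group means in log2 units (x axis), with a point for each of the 22206 probe sets. Red and blue points had an unadjusted p below 0.05 with a higher or lower mean in CETP cholesterol-diet astrocytes; none passed the adjusted threshold, and the lowest point, at -3.90, has a p of 0.195.

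Gene names were available for 1610 probe sets, covering 1597 genes. They come from a deposited fold change table that lists probe sets differing at least 1.4-fold between the CETP cholesterol-diet arrays and those with the CETP standard-diet label, and the cholesterol-diet arrays enter that choice. The naming thus favours probe sets that are high or low on those arrays: among the 690 named probe sets with a higher mean in CETP cholesterol diet than in the CETP standard-diet label, 22.6% were also higher than wild type at an unadjusted p below 0.05 and 0.145% were lower. Among the 920 with a lower mean than in the CETP standard-diet label, 2.07% were higher than wild type, and 138 of the 920 were lower. Over all named probe sets, 10.9% were higher and 8.63% lower, together 19.5%; 52.3% had a positive difference, beside 43.6% of all probe sets; and 17.1% and 15.3% had arrays that did not overlap in the higher and lower direction. These shares are the background against which the gene groups have to be read.

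The 15 named genes with a lower mean in CETP cholesterol-diet astrocytes that were chosen by p have varied roles. They had differences between -1.36 and -0.85, with adjusted p between 0.449 and 0.505. The animal numbers in the labels begin with 5 or 6 in both groups, with no meaning given for that digit. Within 5, where a single array stands for each group, the differences of the 15 ran between -1.51 and -0.51, and within 6 between -1.35 and -0.66. Arrays without overlap between the groups were part of the choice, so the sign within each digit was fixed by it. Zc3h15, a zinc finger protein that binds a translation factor GTPase, had levels of 11.35, 11.79 and 11.09 on CETP cholesterol-diet arrays 1 to 3, 11.95 and 12.07 on the arrays with the CETP standard-diet label, and 12.80 and 12.74 on the wild-type arrays. The wild-type arrays lay close together, and all 3 cholesterol-diet arrays lay below every other array. The difference was -1.36 ± 0.24 (SE), which is 2.57-fold higher in wild type (limma, unadjusted p = 0.000236).

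Top1, the topoisomerase that relaxes DNA supercoils during transcription, had levels of 8.53, 8.64 and 8.44 in CETP cholesterol-diet astrocytes, 9.31 and 9.36 under the CETP standard-diet label, and 9.64 and 9.46 in wild type. Its cholesterol-diet arrays were close together and stood apart from all other arrays. The difference was -1.02 ± 0.19 (SE; limma, unadjusted p = 0.000408), beside -0.22 for the CETP standard-diet label minus wild type, a contrast that uses the same wild-type arrays. Gk, the glycerol kinase that feeds glycerol into glycerolipid synthesis, had levels of 9.29, 9.56 and 8.87 in CETP cholesterol-diet astrocytes, 9.82 and 10.31 under the CETP standard-diet label, and 10.52 and 10.57 in wild type. Here the standard-diet label arrays lay between the other groups. The Gk difference was -1.30 ± 0.26 (SE; limma, unadjusted p = 0.000573).

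Srsf10, a splicing regulator of the SR family, had levels of 11.92, 12.35 and 11.90 in CETP cholesterol-diet astrocytes and 13.19 and 12.78 in wild type, without overlap. Smchd1, a chromatin protein of the inactive X chromosome, had levels of 8.12, 8.64 and 8.32 in CETP cholesterol-diet astrocytes and 9.46 and 9.19 in wild type. Hdac2, a histone deacetylase, was among the 5 largest lower differences at -1.19 ± 0.34 (SE). Its value depended on the arrays set against each other, with -2.10 between the animals whose number begins with 5 and -0.54 between those whose number begins with 6. Cwf19l2, related to a yeast factor of spliceosome recycling, had the largest named lower difference, -1.41 ± 0.47 (SE), but its wild-type arrays read 12.80 and 11.03, and the cholesterol-diet values of 10.46, 10.95 and 10.09 reach close to the lower of them.

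Of the other genes of this set, Heatr3, which takes part in the nuclear import of ribosomal proteins, had a difference of -1.07 ± 0.26 (SE), and Cetn4, a centrin of ciliated cells, had -1.19 ± 0.28 (SE). Wsb1 and Fbxo4, substrate receptors of ubiquitin ligases, had -0.88 and -0.92. Mrpl47, a mitochondrial ribosomal protein, Fastkd1, which binds mitochondrial RNA, and Afg1l, a mitochondrial ATPase, had -0.92, -0.85 and -0.92. Rab9b, a small GTPase of endosomal transport, had -0.96, Ahsa2, related to an activator of the HSP90 ATPase, had -0.999, and Smim22, a small membrane protein, had -1.02. Afg1l was under the median of the negative controls on 5 of the 7 arrays, and Rab9b and Fastkd1 on 3 of 7.

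The 15 named probe sets with a higher mean that were chosen by p also have varied roles. They had differences between 0.73 and 1.79, with adjusted p between 0.470 and 0.505. Within animal numbers beginning with 5 these differences ran between 0.65 and 1.79, and within those beginning with 6 between 0.74 and 2.04. Here too the choice of arrays without overlap fixed the sign within each digit. Mapk8ip1, which encodes the JNK scaffold JIP1, had levels of 13.11, 12.33 and 13.04 on CETP cholesterol-diet arrays 1 to 3, 12.29 and 12.58 under the CETP standard-diet label, and 11.62 and 11.37 in wild type. All transgenic arrays lay above wild type, and array 2 of the cholesterol diet lay within the range of the standard-diet label. The difference was 1.34 ± 0.27 (SE), or 2.53-fold (limma, unadjusted p = 0.000693).

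Hif3a, a member of the hypoxia-inducible factor family that is also induced by glucocorticoids, had levels of 9.65, 8.88 and 9.76 in CETP cholesterol-diet astrocytes, 8.23 and 8.70 under the CETP standard-diet label, and 7.87 and 8.14 in wild type. The 3 groups did not overlap, in that order. Its difference was 1.43 ± 0.29 (SE; limma, unadjusted p = 0.000813), beside 0.46 for the CETP standard-diet label. Of the 6 hypoxia genes named, Hif3a alone was past an unadjusted p of 0.05, and the median over the 6 was 0.04; Hif1a, the oxygen-regulated subunit, had -0.46 and Vhl, its ubiquitin ligase component, had -0.29. Gm10382, a predicted gene of unknown role, had levels of 16.49, 15.65 and 16.34 in CETP cholesterol-diet astrocytes and 14.72 and 14.02 in wild type, near the top of the intensity range.

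Gps2, a subunit of the NCoR corepressor complex with roles in lipid metabolism, had levels of 12.39, 11.70 and 12.42 in CETP cholesterol-diet astrocytes and 11.29 and 10.61 in wild type. Slc9a3r1, the adaptor NHERF1 that anchors membrane transporters, had levels of 15.20, 14.54 and 15.36 in CETP cholesterol-diet astrocytes and 13.81 and 14.12 in wild type. Both show the same order of the cholesterol-diet arrays, with array 2 nearest to wild type. Array 2 was nearest to wild type in 11 of the 15 genes with a higher mean and in 12 of the 15 with a lower mean, and array 2 also had the dimmest spike-ins of the cholesterol-diet arrays. With spike-in level as a covariate, none of these 30 genes took the opposite sign. They were chosen for small p and arrays without overlap on the same values, so a kept sign says little. In that limma fit the smallest adjusted p over all probe sets was 0.999. The part of the spike-ins in these genes was not tested.

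**Figure D2:**
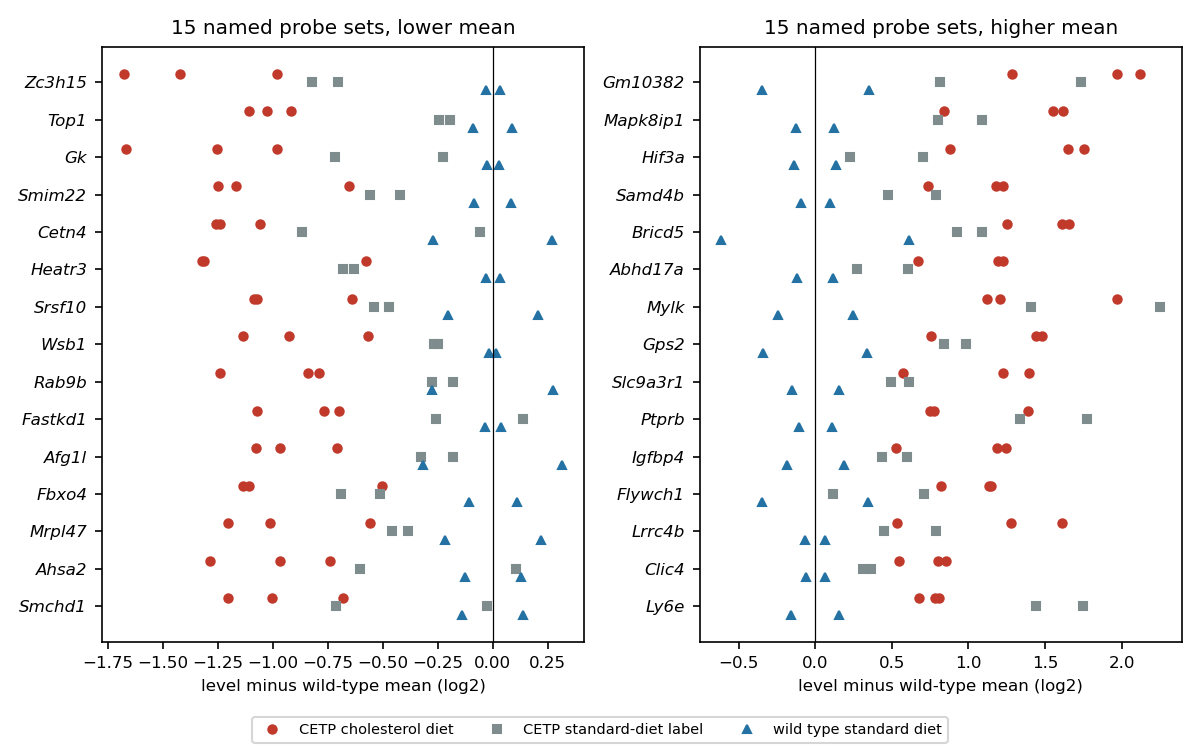
Level of each array minus the wild-type mean, in log2 units (x axis), for the 15 named genes with the smallest p and a lower mean in CETP cholesterol-diet astrocytes (left) and the 15 with a higher mean (right); circles are CETP cholesterol-diet arrays, squares the CETP standard-diet label and triangles wild type. Circles do not overlap triangles because non-overlap was part of the choice, and the squares mostly lie between them or beside the circles.

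Further members of the set with higher means were Samd4b, an RNA-binding repressor of translation, at 1.05; Bricd5, a protein with a BRICHOS domain, at 1.51; Abhd17a, a depalmitoylase, at 1.03; Flywch1, a nuclear zinc finger protein, at 1.04; Lrrc4b, a synaptic adhesion protein, at 1.14; and Clic4, a chloride intracellular channel protein, at 0.73. Mylk, the myosin light chain kinase of smooth muscle, had levels of 9.15, 9.23 and 10.00 in CETP cholesterol-diet astrocytes, 10.28 and 9.44 under the CETP standard-diet label, and 7.78 and 8.27 in wild type. Ptprb, a receptor phosphatase of endothelium, had levels of 9.28, 9.31 and 9.92 in CETP cholesterol-diet astrocytes, 10.30 and 9.87 under the CETP standard-diet label, and 8.43 and 8.64 in wild type. For both vessel genes the mean of the standard-diet label lay further from wild type than that of the cholesterol diet.

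The largest named differences belonged to genes that varied widely among arrays. Frzb, a secreted Wnt antagonist, had levels of 8.14, 11.93 and 10.03 in CETP cholesterol-diet astrocytes, 10.66 and 10.49 under the CETP standard-diet label, and 7.43 and 6.61 in wild type. Its difference was 3.02 ± 0.84 (SE; limma, unadjusted p = 0.00535, adjusted p = 0.505). Within the animals whose number begins with 5 the Frzb difference was 0.72, and within those beginning with 6 it was 4.37, so cholesterol-diet array 1 lay near wild type.

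Lcn2, the iron-siderophore binding lipocalin of reactive astrocytes, had levels of 9.35, 6.70 and 8.24 in CETP cholesterol-diet astrocytes, 5.61 and 9.09 under the CETP standard-diet label, and 5.47 and 5.17 in wild type. The wild-type arrays were close together while both CETP groups spread widely, and 4 of the 7 arrays read below the median of the negative controls. Podxl, a sialomucin of endothelium and epithelium, had 11.81, 11.24 and 12.98 in CETP cholesterol-diet astrocytes and 8.96 and 10.72 in wild type. Actg1, which encodes cytoplasmic gamma-actin, had 10.17, 8.71 and 10.92 in CETP cholesterol-diet astrocytes and 8.57 and 8.02 in wild type, and its difference of 1.64 became -0.17 with the spike-in covariate.

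Several protein folding genes had lower means. The endoplasmic reticulum list named 6 genes, of which 2 were lower at an unadjusted p below 0.05 and none higher. Over all named probe sets 8.63% were lower at that threshold. The median of the list was -0.26, beside -0.05 over all probe sets. Of the 6 names, 5 were chosen for a lower level in cholesterol diet than in the CETP standard-diet label. Hspa5, the chaperone BiP of the endoplasmic reticulum lumen, had levels of 12.47, 12.60 and 12.46 in CETP cholesterol-diet astrocytes, 13.35 and 13.39 under the CETP standard-diet label, and 13.80 and 12.93 in wild type. The cholesterol-diet arrays were close together and lay below all 4 others, while the wild-type arrays differed from each other by more than the gap between groups at its narrowest. The Hspa5 difference was -0.85 ± 0.26 (SE; limma, unadjusted p = 0.00913), beside 0.00 for the CETP standard-diet label minus wild type.

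Creld2, a disulfide isomerase induced by endoplasmic reticulum stress, had levels of 9.54, 10.15 and 9.63 in CETP cholesterol-diet astrocytes, 10.55 and 10.28 under the CETP standard-diet label, and 11.02 and 10.41 in wild type. The groups did not overlap, and the gap between cholesterol-diet array 2 and the lower wild-type array was small. The difference was -0.95 ± 0.27 (SE; limma, unadjusted p = 0.00605). Pdia4, another disulfide isomerase, had -0.53 ± 0.28 (SE), and Chac1, a glutathione-degrading enzyme of the same stress response, had 0.25 ± 0.23 (SE) at levels below the negative controls on all 7 arrays.

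The promoters of Hspa5 and Creld2 are shown because both hold the endoplasmic reticulum stress element, which begins with CCAAT, goes on with any 9 bases and ends with CCACG, and which binds NF-Y and ATF6 in well-studied chaperone genes. They are RefSeq sequences of build GRCm38.p6, written 5′ to 3′ on the strand of the gene from 250 bases before to 50 bases after its start, and the capitals mark the element. Hspa5 lies at chr2:34771840-34772139 on the plus strand, and Creld2 at chr15:88819396-88819695 on the plus strand, where the element reads on the opposite strand.
Hspa5: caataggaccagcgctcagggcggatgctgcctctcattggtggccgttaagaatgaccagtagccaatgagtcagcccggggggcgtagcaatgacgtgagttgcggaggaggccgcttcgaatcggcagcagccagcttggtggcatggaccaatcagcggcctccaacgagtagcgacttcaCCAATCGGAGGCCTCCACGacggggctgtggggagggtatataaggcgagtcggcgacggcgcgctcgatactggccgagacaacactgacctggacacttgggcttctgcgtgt
Creld2: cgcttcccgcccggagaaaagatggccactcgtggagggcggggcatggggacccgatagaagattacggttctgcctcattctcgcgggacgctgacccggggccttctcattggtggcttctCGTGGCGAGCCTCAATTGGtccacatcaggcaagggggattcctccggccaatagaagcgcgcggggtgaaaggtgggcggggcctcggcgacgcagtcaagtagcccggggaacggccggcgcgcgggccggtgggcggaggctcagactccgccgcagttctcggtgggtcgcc
Both strands were searched in 32851 promoters of the same length, and 0.119% held the element. Of the 6 genes on the list, 3 held it: Hspa5, Creld2 and Derl3, a factor that moves misfolded proteins out of the endoplasmic reticulum. Derl3, which the naming rule did not choose and which is named here after its value was seen, had a difference of 0.01 at levels below the negative controls on all 7 arrays.

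Cytosolic and mitochondrial heat shock proteins showed the same direction in 6 of 7 genes, with a median of -0.60; all 7 names had been chosen for a lower level in cholesterol diet than in the CETP standard-diet label. Hspe1, the mitochondrial co-chaperonin, had levels of 10.52, 10.80 and 10.26 in CETP cholesterol-diet astrocytes, 11.34 and 10.74 under the CETP standard-diet label, and 11.46 and 11.30 in wild type. Its cholesterol-diet arrays lay below both wild-type arrays, while the standard-diet label overlapped them. The difference was -0.85 ± 0.25 (SE; limma, unadjusted p = 0.00781), and Hspe1 was the only gene of this list past that threshold. Cct8, a subunit of the cytosolic chaperonin, had -0.83, Hspd1, the mitochondrial chaperonin that pairs with Hspe1, had -0.52, and Hspa8, the constitutive HSC70, had -0.49. Cct8 and Hspd1 took the opposite sign with the spike-in covariate, at 0.34 and 0.46.

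The promoter of Hspe1 is printed as an example of a heat shock element, which begins with GAA, has TTC in its middle and ends with GAA, with any 2 bases in each gap, and is marked in capitals. It is the RefSeq sequence of build GRCm38.p6 at chr1:55087898-55088197 on the plus strand.
Hspe1: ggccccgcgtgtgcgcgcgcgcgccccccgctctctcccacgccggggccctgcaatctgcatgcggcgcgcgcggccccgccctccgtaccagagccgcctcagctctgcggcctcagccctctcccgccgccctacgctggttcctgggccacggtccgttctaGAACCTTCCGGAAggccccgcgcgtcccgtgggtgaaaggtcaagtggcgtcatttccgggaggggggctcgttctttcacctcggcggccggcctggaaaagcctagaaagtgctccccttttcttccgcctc
Over both strands the element was found in 0.603% of the 32851 promoters. Among the heat shock list, 6 of 7 genes had a promoter in the table and 3 held the element, Hspe1, Hspd1 and Hsph1, a nucleotide exchange factor of HSP70 that the naming rule did not choose and whose difference was -0.66. Another 6 spellings were searched in the same way, and each was found in between 0.00913% and 1.79% of the 32851 promoters: a further stress element that begins with ATTGG and, after any base, ends with CCACG, the sterol regulatory element TCACCCCAC, the lysosomal element with core TCACGTGA, the glucocorticoid response element that begins with AGAACA and, after any 3 bases, ends with TGTTCT, the cyclic AMP response element TGACGTCA, and the unfolded protein response element TGACGTGG. None of these 6 was found in the promoters of the chaperone or sterol genes held in the table.

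Most ribosome and proteasome genes also had lower means. The ribosomal protein list named 15 probe sets, 14 of them with a lower mean in CETP cholesterol-diet astrocytes and a median of -0.64. The prefix that built this list also takes in the kinases Rps6ka2 and Rps6kc1; without them, 12 of 13 were lower with a median of -0.53. Of the 13, 5 were lower at an unadjusted p below 0.05 and none higher, beside 8.63% lower over all named probe sets. Of these 5, 4 belong to the mitochondrial ribosome: Mrpl47 at -0.92, Mrpl18 at -0.90, Mrpl33 at -0.86 and Mrpl24 at -0.69. The other was Rps21 of the cytosolic ribosome at -0.76, which the naming rule did not choose. Mrpl47 had levels of 9.40, 9.86 and 9.21 in CETP cholesterol-diet astrocytes, 9.96 and 10.03 under the CETP standard-diet label, and 10.63 and 10.20 in wild type, with the standard-diet label between the others. Of these 13 names, 11 were chosen for a lower level in cholesterol diet than in the CETP standard-diet label.

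All 6 subunits named from the list of the proteasome, the protease that degrades ubiquitin-tagged proteins, had a lower mean in CETP cholesterol-diet astrocytes, with a median of -0.70 and differences between -1.03 and -0.54. Psmc2, an ATPase subunit of its regulatory particle, had levels of 10.07, 10.64 and 10.22 in CETP cholesterol-diet astrocytes, 10.76 and 10.91 under the CETP standard-diet label, and 11.24 and 10.92 in wild type. The groups did not overlap, and the difference was -0.78 ± 0.23 (SE; limma, unadjusted p = 0.00818). Psmc6, another ATPase subunit, had -0.81 and Psma7, a subunit of the core particle, had -1.03, both past the same threshold. Psmb8 and Psmb9, interferon-inducible subunits of the immunoproteasome that were counted with the interferon list, had 0.24 and 0.30, so the 8 named subunits did not share a sign. The 6 subunits of the proteasome list were chosen for a lower level in cholesterol diet than in the CETP standard-diet label, so the sign they have in common is not independent of the naming.

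For genes of chromatin and transcription, 6 of 8 had a lower mean, with a median of -0.38. Beside Top1 and Hdac2, the de novo DNA methyltransferase Dnmt3a had -0.56 ± 0.26 (SE), and the histone methyltransferase subunit Setd1a had 0.50 ± 0.24 (SE). All 4 splicing genes had a lower mean, and after Srsf10 the next was the kinase Clk4 at -0.45. All 4 splicing names and 7 of the 8 chromatin names were chosen for a lower level in cholesterol diet than in the CETP standard-diet label. The direction of these lists is thus not independent of the naming. Of all 1610 named probe sets, 768 had a negative difference. Prdx1, a peroxiredoxin that removes hydrogen peroxide, was the only gene named from the oxidative stress list, at -0.83 ± 0.33 (SE), and Itgb1, the integrin beta-1 subunit, had -1.04 ± 0.35 (SE).

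Sterol genes did not share a direction, and all were short of the adjusted threshold. Mvk, the mevalonate kinase, had levels of 8.15, 7.84 and 8.13 in CETP cholesterol-diet astrocytes, 7.51 and 7.75 under the CETP standard-diet label, and 7.64 and 7.40 in wild type. The cholesterol-diet arrays lay above all other arrays, at levels near the negative controls. The Mvk difference was 0.52 ± 0.21 (SE; limma, unadjusted p = 0.0331), beside 0.11 for the CETP standard-diet label minus wild type. Ebp, the sterol isomerase, had 9.19, 10.00 and 8.67 in CETP cholesterol-diet astrocytes and 10.09 and 9.88 in wild type, a difference of -0.70 ± 0.34 (SE) with overlap, which became 0.23 with the spike-in covariate.

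The regulators of the pathway overlapped between groups. Srebf2, the SREBP that drives sterol synthesis, had levels of 15.88, 15.28 and 15.84 in CETP cholesterol-diet astrocytes, 15.23 and 14.73 under the CETP standard-diet label, and 15.38 and 14.99 in wild type. Srebf1, the SREBP of fatty acid synthesis, had 12.52, 12.09 and 12.98 in CETP cholesterol-diet astrocytes, 12.19 and 11.33 under the CETP standard-diet label, and 12.14 and 12.12 in wild type. In both genes array 2 of the cholesterol diet lay within or below the wild-type range. All 6 genes of sterol sensing had a positive difference, with a median of 0.27, and none was past an unadjusted p of 0.05. Nceh1, a neutral cholesteryl ester hydrolase, had 0.35 ± 0.28 (SE).

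**Figure D3:**
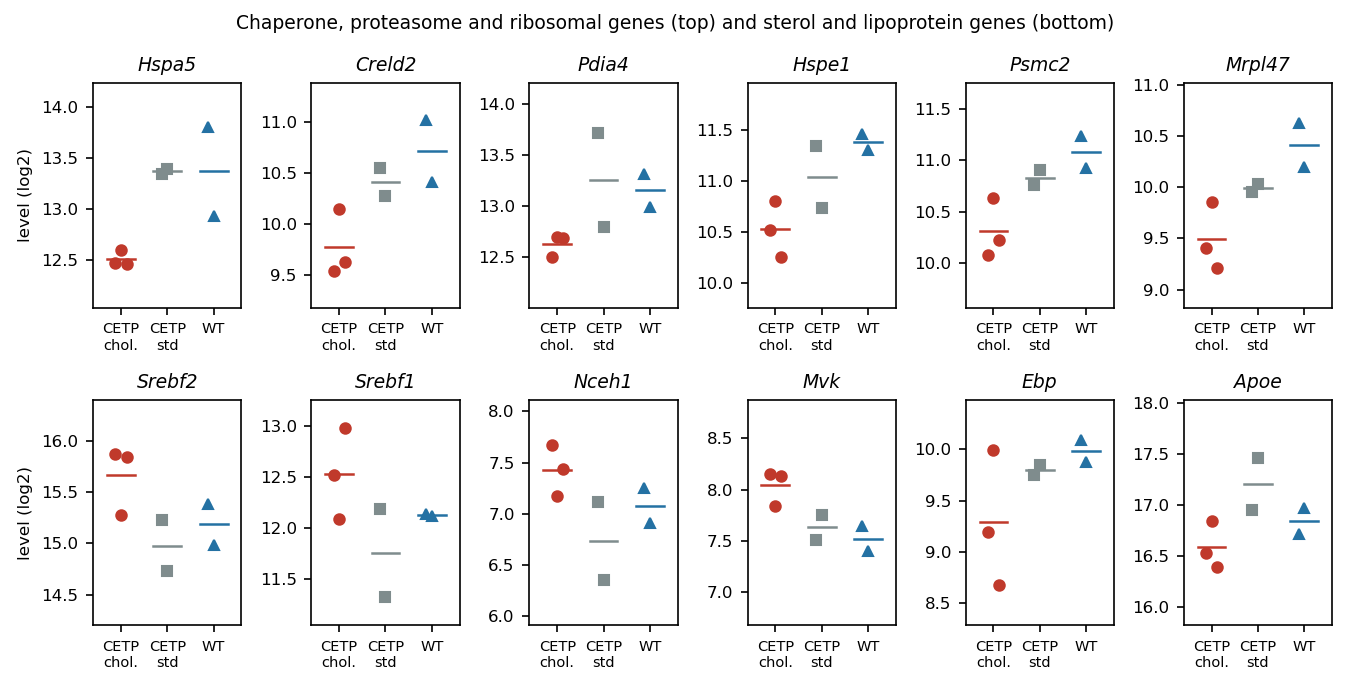
Level of 12 genes in log2 units (y axis, the same span in every panel) on CETP cholesterol-diet arrays, arrays with the CETP standard-diet label and wild-type arrays (left to right); points are arrays and lines are group means. In the top row the cholesterol-diet arrays lie below wild type without overlap, and in the bottom row Mvk lies above wild type without overlap while Srebf2, Srebf1, Nceh1, Ebp and Apoe overlap with it.

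Lipoprotein genes differed little. Apoe, the main apolipoprotein of brain, had levels of 16.53, 16.85 and 16.39 in CETP cholesterol-diet astrocytes, 16.95 and 17.46 under the CETP standard-diet label, and 16.72 and 16.97 in wild type, a difference of -0.25 ± 0.24 (SE). Of its receptors, Lrp1 had 0.21 ± 0.27 (SE), Lrp10 had 0.40 ± 0.33 (SE) and Sorl1, a sorting receptor that also binds the amyloid precursor protein, had 0.39 ± 0.23 (SE). All 3 receptors and Apoe took the opposite sign with the spike-in covariate. Aplp1, a homologue of the amyloid precursor protein, had levels of 17.00, 16.66 and 16.23 in CETP cholesterol-diet astrocytes and 15.68 and 15.88 in wild type, without overlap, and a difference of 0.85 ± 0.25 (SE). In glycerolipid metabolism, Lpin2, a phosphatidate phosphatase, had -0.46 ± 0.22 (SE) beside Gk.

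In the insulin and FoxO list 4 of 6 genes were higher at an unadjusted p below 0.05, beside 10.9% of all named probe sets. The median was 0.79, and 5 of the 6 names were chosen for a higher level in cholesterol diet than in the CETP standard-diet label. Foxo3, a transcription factor restrained by insulin signalling, had levels of 7.85, 7.55 and 7.62 in CETP cholesterol-diet astrocytes, 7.41 and 6.80 under the CETP standard-diet label, and 6.27 and 6.47 in wild type. Foxo4, of the same family, had 7.44, 6.44 and 7.003 in CETP cholesterol-diet astrocytes, 6.66 and 6.21 under the CETP standard-diet label, and 5.61 and 4.88 in wild type. The differences were 1.30 ± 0.24 and 1.72 ± 0.33 (SE), but Foxo3 read below the median of the negative controls on 5 of 7 arrays and Foxo4 on all 7, so these are differences at background intensity.

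Igfbp4, a secreted protein that binds insulin-like growth factors, was well above that level, with 9.69, 10.35 and 10.41 in CETP cholesterol-diet astrocytes and 8.98 and 9.35 in wild type. Mtor, the kinase of nutrient signalling, had 0.60 ± 0.27 (SE), with -0.02 under the spike-in covariate. Nr1d1, a circadian repressor, had 14.76, 14.60 and 14.98 in CETP cholesterol-diet astrocytes, 14.15 and 14.11 under the CETP standard-diet label, and 14.31 and 14.20 in wild type, a difference of 0.52 ± 0.20 (SE). Its cholesterol-diet arrays lay above all others by a small margin.

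**Figure D4:**
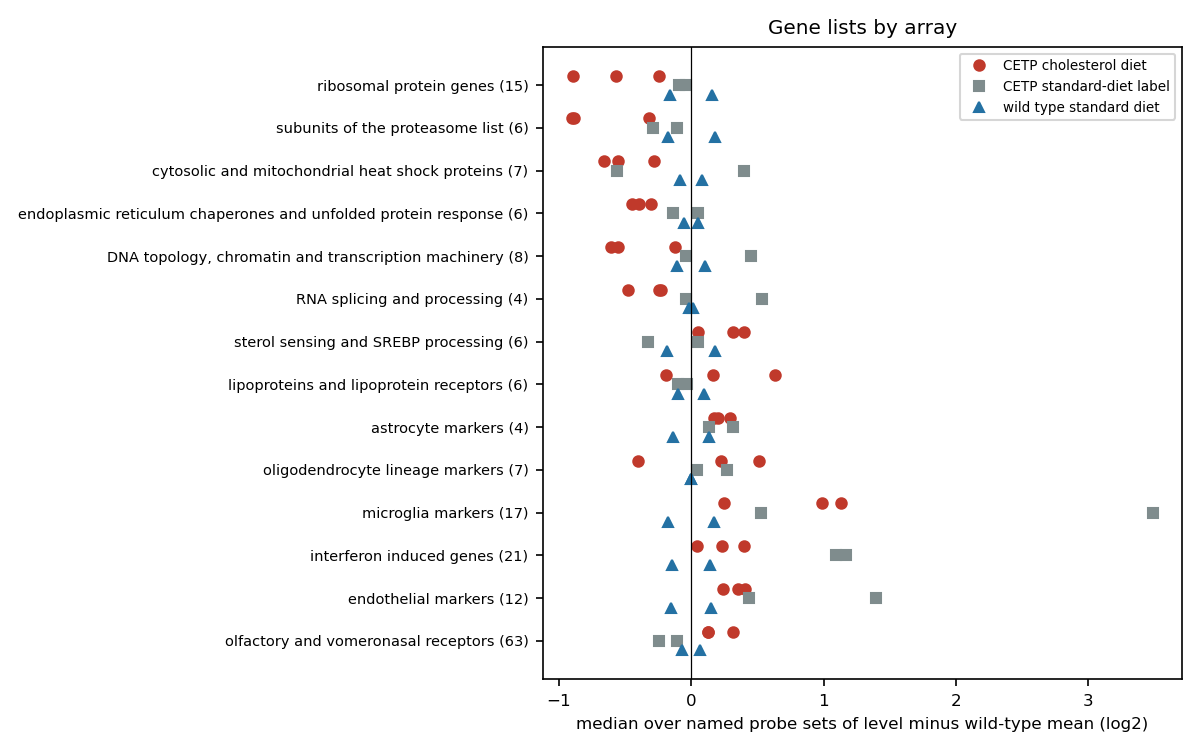
Median over the named probe sets of each gene list (number in brackets) of the array level minus the wild-type mean, in log2 units (x axis); circles are CETP cholesterol-diet arrays, squares the CETP standard-diet label and triangles wild type. For ribosomal genes and subunits of the proteasome list all 3 cholesterol-diet arrays lie below wild type, and for microglia and interferon genes both arrays of the standard-diet label lie above wild type. Naming chose all microglia, interferon and proteasome subunit probe sets for a lower level in cholesterol diet than in the CETP standard-diet label.

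Astrocyte identity was checked on the markers that carried a name. Slc1a3, which encodes the glutamate transporter GLAST, had levels of 13.61, 12.67 and 13.68 in CETP cholesterol-diet astrocytes, 12.62 and 12.20 under the CETP standard-diet label, and 12.59 and 11.59 in wild type. The groups did not overlap, although cholesterol-diet array 2 and the higher wild-type array were close; the difference was 1.23 ± 0.38 (SE; limma, unadjusted p = 0.00916). The labels call the purified cells positive for GLAST, whereas the antigen of the ACSA-2 beads is a different protein, a subunit of the sodium pump, so whether cells were selected on the product of Slc1a3 is not settled. Sox9, a transcription factor of astrocytes, had 0.44 ± 0.29 (SE), with -0.27 under the spike-in covariate. All 4 astrocyte markers with a name read above the negative controls on every array, with mean levels between 14.94 and 15.12 on CETP cholesterol-diet arrays and between 14.50 and 14.82 on wild-type arrays. Gfap and Aqp4 were not among the named probe sets and were not analysed here.

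Markers of other cells behaved differently by cell type, and their part in the results was not tested. Mean levels of microglia and endothelial markers were higher on every cholesterol-diet array than on both wild-type arrays. The same held for neuron, mural and astrocyte markers. Neuron markers had 7.61, 7.35 and 7.57 on cholesterol-diet arrays and 7.06 and 7.23 on wild-type arrays. Mural, smooth muscle and fibroblast markers had 9.23, 9.05 and 9.32 beside 8.97 and 8.89. Mean levels of oligodendrocyte lineage, choroid plexus and blood markers overlapped between the groups. Of 17 microglia markers, 15 had a higher mean in CETP cholesterol-diet astrocytes, with a median of 0.75, but none had an unadjusted p below 0.05. In 8 of the 17 the arrays did not overlap, beside 17.1% of all named probe sets in the higher direction. The mean level of the microglia markers lay between 8.02 and 8.78 on CETP cholesterol-diet arrays and between 7.64 and 7.97 on wild-type arrays. The array highest of all, at 11.14, was array 4 of the CETP standard-diet label, while array 5 of that label had 8.33. C1qb, a subunit of complement C1q, had levels of 8.42, 7.14 and 8.99 in CETP cholesterol-diet astrocytes, 10.60 and 7.26 under the CETP standard-diet label, and 6.70 and 6.40 in wild type. For C1qb, 4 of the 7 arrays, both of wild type among them, read below the negative controls. Selplg, a ligand of selectins, and Fcer1g, an adaptor of Fc receptors, had 1.53 ± 0.70 and 0.97 ± 0.56 (SE). Of the 17 markers, 9 read below the negative controls on 4 or more arrays, Fcer1g on 6 of 7. All 17 names had been chosen for a lower level in cholesterol diet than in the CETP standard-diet label.

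Interferon-induced genes had a median of 0.28 over 21 probe sets, of which 18 were higher and 5 past an unadjusted p of 0.05. Over all named probe sets 10.9% were higher at that threshold. Ly6e, a membrane protein that restricts virus entry, had levels of 13.64, 13.61 and 13.50 in CETP cholesterol-diet astrocytes, 14.58 and 14.27 under the CETP standard-diet label, and 12.98 and 12.67 in wild type, 3 groups without overlap. Tnfsf10, the death ligand TRAIL, had 1.21 ± 0.34 (SE) at levels below the negative controls on 6 of 7 arrays, and Samd9l, an antiviral factor, had 0.62 ± 0.21 (SE). For the CETP standard-diet label minus wild type the median of the list was 1.09. All 21 names had been chosen for a lower level in cholesterol diet than in the CETP standard-diet label. That the standard-diet label had the higher median is therefore not independent of the naming.

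Endothelial markers had a higher mean in 10 of 12, and 4 were past an unadjusted p of 0.05: Ptprb, Podxl, the VEGF receptor Flt1 at 0.70 and the adhesion receptor Adgrl4 at 0.57. Over all named probe sets 10.9% were higher at that threshold, and 52.3% had a positive difference. Of the 12 names, 10 were chosen for a lower level in cholesterol diet than in the CETP standard-diet label. Their mean level lay between 9.63 and 9.94 on CETP cholesterol-diet arrays and between 9.09 and 9.49 on wild-type arrays. Among oligodendrocyte lineage genes, 5 of 7 had a higher mean with a median of 0.13; the transcription factors Nkx2-2 and Olig2 had 0.88 and 0.81, while the myelin lipid enzyme Ugt8a had -0.70, and Nkx2-2 became -0.03 with the spike-in covariate. Of 3 neuron markers, Camk2a, a kinase of excitatory neurons, had 0.86, Reln, a secreted matrix protein, had 0.31 and Syn1, a synaptic vesicle protein, had -0.09. Reln read below the negative controls on all 7 arrays and Syn1 on 6 of 7. Of 6 choroid plexus and ependymal markers, 4 had a lower mean with a median of -0.29. Otx2, a homeobox factor of choroid plexus, had -0.88 and Kl, which encodes the membrane protein klotho, had 0.36. Kl read below the negative controls on 5 of 7 arrays. Hbb-b1, a beta-globin chain of red cells, had 14.93, 13.28 and 16.20 in CETP cholesterol-diet astrocytes and 13.53 and 12.81 in wild type, with the highest reading on cholesterol-diet array 3. Its difference of 1.64 became -0.76 with the spike-in covariate. On the same list of 3 blood cell genes S100a8, a calcium-binding protein of neutrophils, had -0.21. S100a8 read below the negative controls on all 7 arrays. Junb, an immediate early transcription factor, had 9.17, 8.32 and 9.93 in CETP cholesterol-diet astrocytes and 8.15 and 7.80 in wild type, with 10.10 and 9.22 under the CETP standard-diet label.

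Broad protein classes were also counted. Among 109 G-protein coupled receptors 76 had a positive difference, with a median of 0.19 over the 109. Of the 109, 63 are olfactory and vomeronasal receptors, and 41 of these 63 had a positive difference, with a median of 0.20. Of the 63 names, 48 were chosen for a higher level in cholesterol diet than in the CETP standard-diet label. On all 7 arrays, 59 of the 63 read below the negative controls. Solute carriers had 20 positive and 14 negative differences among 34 genes taken by prefix, which include the adaptor Slc9a3r1. At an unadjusted p below 0.05, 4 of the 34 were higher and 1 was lower. Over all named probe sets 10.9% were higher and 8.63% lower at that threshold. The lower one was the monocarboxylate carrier Slc16a9 at -0.73 ± 0.24 (SE), and Slc1a3 and Slc9a3r1 were among the higher. In respiration, Ndufb8, a subunit of complex I, had 1.02 ± 0.34 (SE), while the other two subunits named had negative differences. Wdfy3, which guides protein aggregates to autophagosomes, had 0.69 ± 0.19 (SE), and it was the only autophagy gene past an unadjusted p of 0.05.

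Probe sets without a name were compared as well, since they make up 20596 of the 22206. The smallest p with a higher mean belonged to TC1800000646.mm.2, with 10.82, 11.50 and 12.10 in CETP cholesterol-diet astrocytes, 11.40 and 11.30 under the CETP standard-diet label, and 9.38 and 9.28 in wild type. TC0600003126.mm.2 had 12.87, 12.36 and 12.58 in CETP cholesterol-diet astrocytes, 12.71 and 12.46 under the CETP standard-diet label, and 11.13 and 11.26 in wild type. In both, all 5 transgenic arrays were more than 1 log2 unit above both wild-type arrays, and the differences were 2.14 ± 0.33 and 1.41 ± 0.22 (SE). With a lower mean, TC0900000375.mm.2 had 4.19, 4.12 and 4.11 in CETP cholesterol-diet astrocytes, 4.28 and 3.92 under the CETP standard-diet label, and 5.51 and 5.20 in wild type, all below the negative controls. These probe sets separate the genotype labels and not the diet labels of the CETP animals.

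By chromosome, Y stood out for lower means. Of its 219 probe sets, 51 were lower at an unadjusted p below 0.05 (23.3%, beside 5.31% over all chromosomes) and 3 were higher. Some of these probe sets share all their values, and the 51 hold 44 distinct profiles. The median over the 44 profiles was 7.45, 7.74 and 7.16 on CETP cholesterol-diet arrays, 7.88 and 7.63 under the CETP standard-diet label, and 8.68 and 8.40 on wild-type arrays. These profiles were chosen for a lower mean in cholesterol diet than in wild type, so that order follows from the choice. The CETP standard-diet label is set against the same wild-type arrays. In 20 of the 44 all cholesterol-diet arrays lay below the median of the negative controls, and in 38 both wild-type arrays lay above it. Over all 219 probe sets of the chromosome the median difference was -0.22. TC0Y00000558.mm.2 had 7.44, 7.23 and 7.21 in CETP cholesterol-diet astrocytes, 7.63 and 7.63 under the CETP standard-diet label, and 8.54 and 8.33 in wild type.

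Only 2 probe sets of chromosome Y carried a name, and both were looked up after their values were seen. Gm20871, a predicted gene of the Y chromosome, had -0.88 ± 0.20 (SE), and Usp9y, a ubiquitin-specific protease, had 0.50 ± 0.24 (SE), both below the negative controls on all 7 arrays. With the spike-in level as a covariate, 12 of the 219 were lower (5.48%, beside 2.41% of all probe sets), and with each array left out in turn between 43 and 63 were lower. Of the other chromosomes, chromosome 14 had the highest share lower, 8.23% of 923 probe sets.

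**Figure D5:**
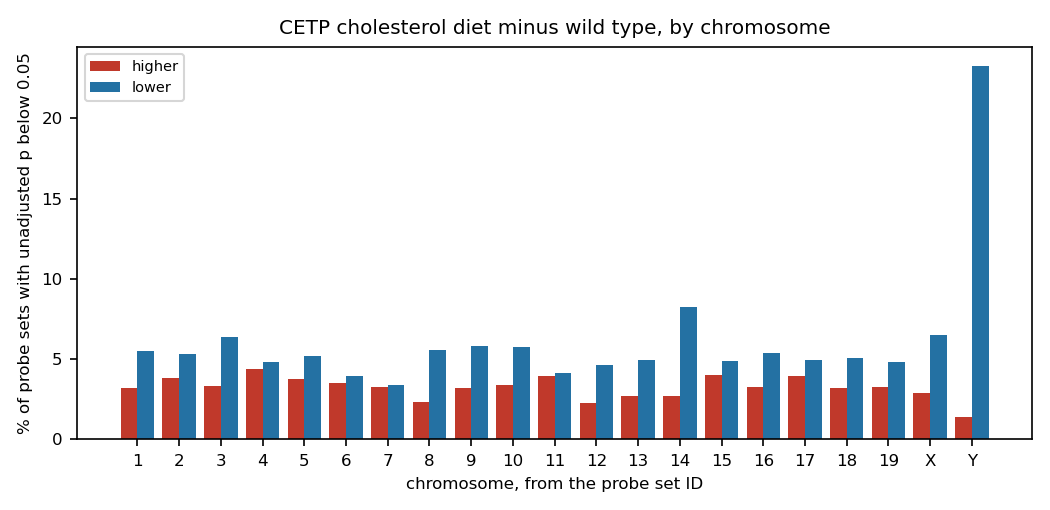
Percent of the probe sets of each chromosome (x axis) that had an unadjusted p below 0.05 with a higher (red) or lower (blue) mean in CETP cholesterol-diet astrocytes than in wild type. Chromosome Y reaches 23.3% lower, and chromosome 14 follows at 8.23%.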

How the data were processed

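Total RNA of 7 astrocyte preparations was measured on Affymetrix arrays, 3 labelled CETP cholesterol diet, 2 CETP standard diet and 2 wild type standard diet. The authors deposited log2 values, already normalized and summarized per probe set. Which summarization software was used is not stated in the labels or file headers. The log base of 2 was settled by setting the authors' deposited fold table against differences of the values: 98.5% of its entries equalled the Tukey biweight difference between the CETP groups within 0.0051. Of 28846 entries, the 22206 whose IDs begin with TC or TS were tested, and control entries were left out.

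Group means of all 7 arrays were fitted with limma 3.58.1 in R 4.3.3 (lmFit, eBayes, 4 residual degrees of freedom) and p-values were adjusted by Benjamini-Hochberg over all probe sets. The fit was tested on simulated data. Single values per array were compared with an exact permutation test. The number of arrays limits the precision. Nothing says that the arrays come from separate animals beyond their numbers, so p-values measure the spread between these samples.

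Names came from the ID and Symbol columns of the fold table, whose fold column was ignored: of 1778 entries, 1469 matched a RefSeq symbol and 55 a synonym, 85 kept the file's name, 160 naming several genes and 8 placed on another chromosome were dropped. The genes named are, per direction, the 15 with the smallest p and the 5 with the largest difference among named probe sets whose arrays did not overlap and whose higher group exceeded the negative controls; up to 4 members of each list by p; 2 unnamed probe sets per direction; and a fixed set of sterol, astrocyte and stress genes. Members and lists were chosen with earlier results of these data known. A few named genes were left out of the text. Alternatives covered scaling, a filter on dim probe sets, blocks, array weights, the prior, the spike-in level as a covariate and leaving out each array.

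Replicate numbers 2 and 3 occur in both groups by title, and deviations of same-numbered arrays correlated at 0.0083 and 0.037, so the numbers were not taken as pairs.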

Additional observations from a re-analysis of the deposited data

Results flagged for a closer look

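Control transcripts outside the main measurement differed between the groups. Hybridization spike-ins averaged 0.565 log2 units higher on CETP cholesterol-diet arrays than on wild-type arrays, higher on 3 of 3 arrays than on both wild-type arrays (two-sided exact permutation p = 0.2, Benjamini-Hochberg adjusted p = 0.6 over 9 array measures). Poly-A spike-ins, added to the RNA before amplification, read 5.67, 5.74 and 5.61 on CETP cholesterol-diet arrays, 5.58 and 5.63 under the CETP standard-diet label, and 5.58 and 5.36 on wild-type arrays, a difference of 0.206 between cholesterol diet and wild type (exact permutation p = 0.1, adjusted p = 0.45). With 10 ways to split 5 arrays, 0.1 is the smallest p this test can give. Their part in the gene differences was not tested apart from the fit with the hybridization spike-ins as a covariate.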

How the results depend on the processing

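No probe set passed an adjusted p of 0.05 under the other settings, except with the replicate numbers of the titles as a block. In that limma fit 7 passed, among them Frzb at 3.96 (adjusted p = 8.59e-05) and Podxl at 2.26 (adjusted p = 0.00869). The numbers do not pair the arrays. CETP cholesterol-diet array 1 shares its number with no wild-type array, so it does not enter the differences of this fit. Of the cholesterol-diet arrays, that array had the lowest Frzb level. The fit was run on 5 arrays and gave 475 higher and 828 lower at an unadjusted p below 0.05. Over the remaining settings the smallest adjusted p ran between 0.213 and 0.999. The counts of 749 higher and 1179 lower became 456 and 645 over the 10738 probe sets above the negative control median, where fewer were tested, and 401 and 535 with the spike-in covariate. Leaving out each array in turn gave 422 to 1030 higher, 686 to 1750 lower and 32.0% to 58.7% of probe sets without overlap, a share that fewer arrays raise by construction; without CETP cholesterol-diet array 1 the counts were 422 and 686. For a gene whose arrays do not overlap between the groups, leaving out an array or adding a block cannot turn the sign. Non-overlap was part of the choice of many named genes. Of 90 named genes, 75 kept their sign in every setting, a count that the choice thus fixed in part. With the spike-in covariate 14 took the opposite sign: Actg1 -0.17, Nkx2-2 -0.0253, Hbb-b1 -0.76, Mtor -0.0236, Cct8 0.34, Ebp 0.23, Sorl1 -0.12, Hspd1 0.46, Cd74 -0.35, Sox9 -0.27, Srebf1 -0.0692, Lrp10 -0.44, Apoe 0.0165 and Lrp1 -0.19. With each array left out in turn Chac1 ran between -0.06, without wild-type array 2, and 0.5547. The cause was not tested. Of 40 list medians, 23 kept their sign in every setting, and 10 turned with the spike-in covariate. About 50% of probe sets read near the negative controls, which limits what their differences can show.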
